A study of Mus musculus with 14 samples.

Results

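The 9 genes described here encode feedback inhibitors of the ERK branch of MAP kinase signalling. Dusp1, Dusp4, Dusp5 and Dusp6 encode dual-specificity MAP kinase phosphatases, Spry1, Spry2 and Spry4 encode Sprouty proteins, and Spred1 and Spred2 encode Sprouty-related proteins. They were taken by gene name from the 26570 genes listed for an experiment on resting mice and the 25933 genes listed for an experiment on learning. All 9 were listed in both tables and passed the low-count filter in both, in which 16324 and 16820 genes were tested. They were counted in all 14 libraries and 6 groups.

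The mice were males of 8 months on a C57BL6 background (C57BL6/J in the study's methods), and RNA of the dorsal hippocampus was sequenced. THY-Tau22 mice carry a human Tau transgene with the G272V and P301S changes under the neuronal Thy1.2 promoter, and their controls were wild-type (WT) littermates. The basal experiment held 3 WT and 2 THY-Tau22 libraries from mice that the labels call basal or resting (WT basal and TAU basal). The labels name no injection for these mice, while a legend of the study calls the resting groups by vehicle, so whether they were injected is unclear. In the learning experiment all mice received 3 weekly injections. WT mice received saline and either stayed in the home cage (WT VEH_HC, n = 3) or were trained in the Morris water maze for 3 days (WT VEH, n = 2). Trained THY-Tau22 mice received either empty carbon nanospheres, CSP (TAU VEH, n = 2), or CSP carrying TTK21, an activator of the acetyltransferases CBP and p300 (TAU MOL, n = 2). RNA of trained mice was taken 1 h after the last trial. Trained THY-Tau22 and trained WT mice therefore differed in genotype and in vehicle at once, and the learning experiment analysed here held no THY-Tau22 mice from the home cage.

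ERK is activated by growth factor receptors and, in neurons, by glutamate receptors and calcium through RAS, RAF and MEK, and its activity in the hippocampus is needed for several forms of memory. Active ERK switches on transcription of its own inhibitors, which makes their mRNA a commonly used readout of recent pathway activity. The phosphatases remove phosphate from the kinases: DUSP1, DUSP4 and DUSP5 are nuclear, DUSP6 is cytoplasmic, DUSP5 and DUSP6 are selective for ERK, and DUSP1 and DUSP4 also act on JNK and p38. Sprouty and SPRED proteins act further upstream, between the receptors and RAF.

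Total counts on genes ran from 24693713 to 52180305 per library, and a single member held 276 to 8364 counts in a library. CPM here means a count scaled to the size of its library with TMM factors, and levels are on that scale unless a length is named. Thy1, whose promoter drives the transgene, was higher in THY-Tau22 than in WT mice in the basal (log2 fold change 1.33, adjusted p = 0.016) and in the trained vehicle comparison (1.21, adjusted p = 3.39e-05; edgeR quasi-likelihood test with Benjamini-Hochberg adjustment, as throughout). Some libraries stood apart. The summed level of 14 choroid plexus markers was 704 and 1994 CPM in the 2 TAU basal libraries against 597 to 715 CPM in WT basal. In the learning experiment it was 160 to 416 CPM in WT VEH_HC, 2193 to 3146 CPM in WT VEH, 464 to 545 CPM in TAU VEH and 1072 to 1184 CPM in TAU MOL, and no marker of the list was at 0 in any library. Across genes, the deviation of a library from the mean of its experiment also followed GC content to different degrees, with rank correlations of 0.48 and -0.60 in the TAU basal libraries, 0.41 to 0.45 in WT VEH_HC, 0.085 and 0.28 in WT VEH, and -0.62 to -0.40 in the 4 trained THY-Tau22 libraries. Summed neuronal markers lay between 3646 and 4611 CPM in all libraries. In this bulk tissue, fewer cells of a type and less RNA per cell cannot be told apart.

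**Figure D1:**
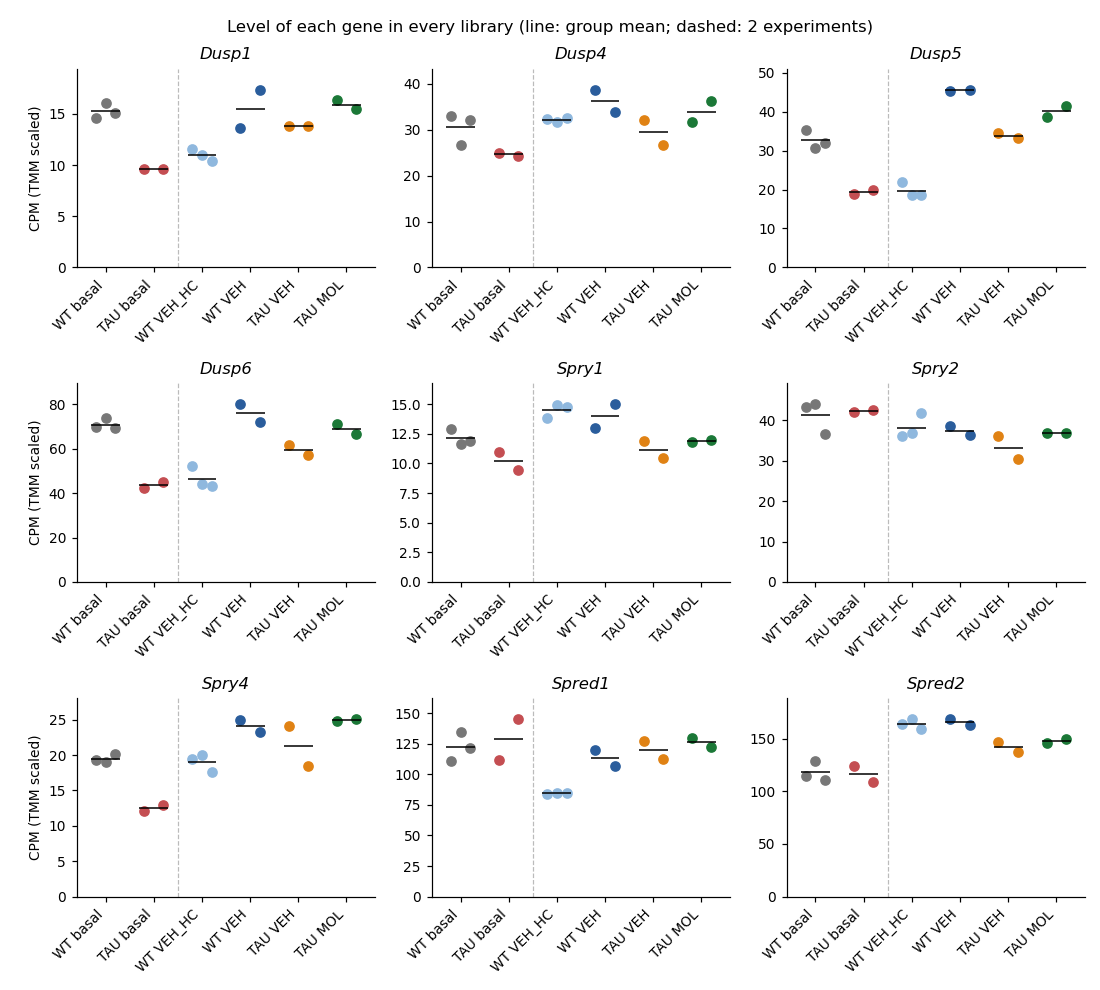
Level of each of the 9 genes in CPM (TMM scaled, y axis from 0) in every library of the 6 groups; points are libraries, horizontal lines group means, and the dashed line separates the basal from the learning experiment. In the basal experiment Dusp5 lies at 18.9 and 20.0 CPM in TAU basal and at 30.7 CPM or more in WT basal. In the learning experiment it lies at 18.5 to 22.0 CPM in WT VEH_HC and at 33.1 CPM or more in the trained groups. The experiments were scaled separately, and the Dusp5 means of WT basal and WT VEH_HC were 32.6 and 19.7 CPM.

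Relative to exon length, Spred2 was the most abundant of the 9 mRNAs in each group by its mean, from 25.2 ± 2.25 CPM per kb of exon (SD, n = 2) in TAU basal to 35.8 ± 0.88 (n = 2) in WT VEH. In WT basal its libraries overlapped those of Dusp6 (25.5 ± 2.00 and 25.3 ± 0.86 CPM per kb, n = 3). Dusp6 was the next highest in WT basal and in the 3 trained groups, but stood below Spry2 and Spred1 in TAU basal (15.6 ± 0.70, n = 2) and overlapped Spry2 in WT VEH_HC (16.6 ± 1.76, n = 3). Spry2, Spred1 and, except in TAU basal and WT VEH_HC, Dusp5 lay at 12.5 to 20.3 CPM per kb by group mean, and Dusp4 lay at 8.99 to 13.2 CPM per kb. Dusp1, Spry4 and Spry1 were the lowest 3 in every group, at 2.73 to 5.90 CPM per kb. At least 1 pair of neighbours in their order overlapped in each group except TAU MOL, where all 3 were apart.

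**Figure D2:**
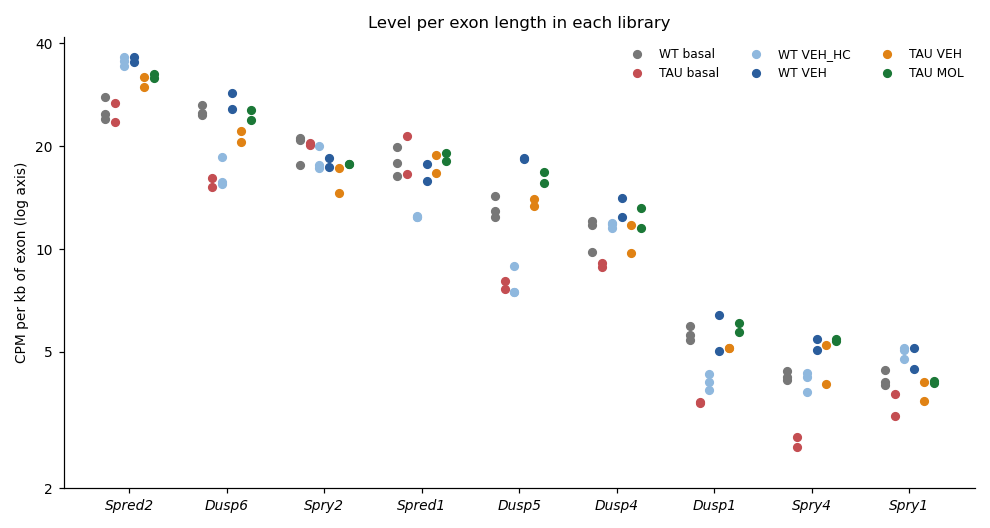
CPM per kb of exon (log axis) of each gene in each library, coloured by group and ordered by the mean over libraries. Spred2 and Dusp6 lead, and Dusp1, Spry4 and Spry1 reach at most 6.43 CPM per kb in any library.

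The first question was whether the feedback genes differed between genotypes in resting mice. Dusp5, Dusp6, Dusp1 and Spry4 were each lower in both TAU basal than in all 3 WT basal libraries, by 0.64 to 0.75 on the log2 scale, but no member passed the edgeR test. A gene is referred to as called where its adjusted p was under 0.05 and its log2 fold change exceeded 0.2 in size. Of the 9 members 0 were called, where 0.0245% of all genes tested were called (4 of 16324, with 803 at an unadjusted p under 0.05). By DESeq2, 4 members were called, all lower, where 0.217% of genes were called and 0.0741% were called lower.

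Dusp5 was at 35.3, 30.7 and 32.0 CPM in WT basal and at 18.9 and 20.0 CPM in TAU basal. The groups did not overlap, and the log2 fold change was -0.75 ± 0.12 (SE; 95% interval -1.02 to -0.48; edgeR adjusted p = 0.144, DESeq2 adjusted p = 0.000444). Dusp6 was at 69.8, 73.6 and 69.1 CPM in WT basal and at 42.3 and 45.1 CPM in TAU basal, again without overlap. Its log2 fold change was -0.70 ± 0.11 (95% interval -0.94 to -0.45; edgeR adjusted p = 0.137, DESeq2 adjusted p = 9.11e-05). These 2 phosphatases are the ERK-selective ones.

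Dusp1, whose product acts on ERK, JNK and p38, was at 14.6, 16.1 and 15.1 CPM in WT basal and at 9.62 and 9.60 CPM in TAU basal (log2 fold change -0.67 ± 0.13, edgeR adjusted p = 0.235, DESeq2 adjusted p = 0.0423). Spry4 was at 19.3, 19.0 and 20.2 CPM in WT basal and at 12.1 and 13.0 CPM in TAU basal (-0.64 ± 0.12, edgeR adjusted p = 0.235, DESeq2 adjusted p = 0.0278). Neither gene overlapped between the groups. Corrected for GC content and length, the differences of Dusp5, Dusp6, Dusp1 and Spry4 were -0.63, -0.67, -0.59 and -0.63, and Dusp6 alone was called by edgeR (adjusted p = 0.0155). With the choroid plexus score in the model they were -0.80, -0.75, -0.67 and -0.68 and none was called. Markers of other cells also stood at different levels. All 5 oligodendrocyte markers had lower estimates in TAU basal, from -0.57 to -0.39, none of them called, and their summed level was 5613 and 6074 CPM against 6136 to 10060 CPM in WT basal. Summed astrocyte markers were at 1841 and 2160 CPM in TAU basal and at 1547 to 1662 CPM in WT basal. Of the 5 astrocyte markers 0 were called, and their estimates ran from -0.20 to 0.65 (median 0.07). The part of these markers in the levels of the feedback genes was not tested.

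Dusp4 (-0.32 ± 0.13) and Spry1 (-0.25 ± 0.14) were also lower in each TAU basal than in each WT basal library, with an edgeR adjusted p of 0.901 for both. Dusp4 was at 33.1, 26.8 and 32.2 CPM in WT basal and at 24.9 and 24.3 CPM in TAU basal. Spry2, Spred1 and Spred2 overlapped between the genotypes and differed by 0.03, 0.07 and -0.02, with 95% intervals of -0.24 to 0.31, -0.24 to 0.39 and -0.29 to 0.24.

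The comparison of WT VEH with WT VEH_HC asked which genes changed 1 h after training in WT mice. Dusp5, Dusp6, Dusp1 and Spred1 rose. Thus 4 of 9 members were called, all higher, where 8.4% of all genes tested were called and 5.35% were called higher. The median log2 fold change of the 9 was 0.35, against -0.0028 over all genes tested.

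Dusp5 was at 22.0, 18.5 and 18.5 CPM in WT VEH_HC and at 45.4 and 45.6 CPM in WT VEH, with no overlap. It rose 2.32-fold (log2 fold change 1.21 ± 0.08 SE, adjusted p = 2.54e-05), the largest change of the 9. Dusp6 was at 52.1, 44.0 and 43.2 CPM in the home cage and at 79.9 and 72.0 CPM after training. It rose 1.64-fold (0.71 ± 0.09, adjusted p = 0.00138), also without overlap.

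Dusp1 was at 11.6, 11.0 and 10.4 CPM in WT VEH_HC and at 13.6 and 17.3 CPM in WT VEH. It rose 1.40-fold (0.49 ± 0.11, adjusted p = 0.0225) with no overlap, but the 2 trained libraries differed by more than the home cage libraries. Without WT VEH replicate 2 its log2 fold change was 0.30 (adjusted p = 0.148), and with only these 2 groups in the fit the adjusted p was 0.0677. Spred1, an inhibitor of RAF activation that works together with neurofibromin, was at 84.4, 84.8 and 84.4 CPM in the home cage and at 120.2 and 106.9 CPM after training. It rose 1.34-fold (0.43 ± 0.07, adjusted p = 0.00906) without overlap; without WT VEH replicate 1 the adjusted p was 0.17.

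Spry4 was at 19.4, 20.0 and 17.6 CPM in WT VEH_HC and at 25.0 and 23.3 CPM in WT VEH. The groups did not overlap, but the difference of 0.35 ± 0.10 missed the threshold by edgeR (adjusted p = 0.0578) and passed it by DESeq2 (adjusted p = 0.0321). Dusp4 was at 32.3, 31.7 and 32.6 CPM and at 38.7 and 33.9 CPM (0.17 ± 0.09, adjusted p = 0.249). Spry1, Spry2 and Spred2 overlapped between the groups, with log2 fold changes of -0.06, -0.03 and 0.01. Their 95% intervals were -0.26 to 0.15, -0.22 to 0.16 and -0.12 to 0.14, so a change as large as that of Dusp6 lay outside each of them.

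All 14 choroid plexus markers were higher in WT VEH than in WT VEH_HC, by a median of 3.21 on the log2 scale. Summed markers of dentate granule cells were at 292 and 325 CPM in WT VEH and at 340 to 491 CPM in WT VEH_HC, and 1 of the 4 was called lower. Of 5 microglial markers 1 was called higher. The part of the dentate and microglial markers in the levels of the members was not tested. With the choroid plexus score as a covariate, 0 of 16820 genes and 0 members were called in this comparison, and the Dusp5, Dusp6, Dusp1 and Spred1 differences were 1.47, 0.86, 1.01 and 0.34. The score and training cannot be told apart in these libraries, since no trained WT library lies within the range of the home cage libraries.

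The promoters of the 4 members that rose after training are shown to let their sequences be compared. They were taken from RefSeq on GRCm38.p6, which had a window for 7 of the 9 members, and each line gives the bases from 250 to 51 before the annotated start, 5′ to 3′ on the strand of the gene. Capitals mark the cAMP response element TGACGTCA, its core TGACG and the CArG box bound by serum response factor, on either strand. Dusp1 lies at chr17:26508523-26508722 on the minus strand, Dusp5 at chr19:53528895-53529094, Dusp6 at chr10:99262981-99263180 and Spred1 at chr2:117120821-117121020, all 3 on the plus strand.
Dusp1: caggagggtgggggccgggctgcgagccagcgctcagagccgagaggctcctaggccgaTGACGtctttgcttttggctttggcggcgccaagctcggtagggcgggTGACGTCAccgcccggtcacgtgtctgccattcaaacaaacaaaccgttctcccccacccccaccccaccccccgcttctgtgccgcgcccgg
Dusp5: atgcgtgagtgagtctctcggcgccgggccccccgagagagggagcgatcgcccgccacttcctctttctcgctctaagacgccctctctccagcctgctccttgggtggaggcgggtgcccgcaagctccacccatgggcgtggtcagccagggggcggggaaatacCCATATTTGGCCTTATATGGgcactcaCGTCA
Dusp6: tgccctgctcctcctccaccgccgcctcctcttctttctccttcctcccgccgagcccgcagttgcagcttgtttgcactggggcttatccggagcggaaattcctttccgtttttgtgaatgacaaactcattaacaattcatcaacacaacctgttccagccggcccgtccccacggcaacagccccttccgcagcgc
Spred1: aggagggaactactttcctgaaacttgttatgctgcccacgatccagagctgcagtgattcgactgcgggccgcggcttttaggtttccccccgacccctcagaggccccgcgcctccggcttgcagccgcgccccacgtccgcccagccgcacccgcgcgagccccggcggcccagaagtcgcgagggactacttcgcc

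In Dusp1 the full element ended 136 bases before the start and a separate core ended 187 bases before it. In Dusp5 a pair of CArG boxes, CCATATTTGG and CCTTATATGG, stood next to each other from 82 to 63 bases before the start, followed by a core on the opposite strand that ended 51 bases before it. No letters of these kinds, nor the ETS core CCGGAA, stood in the windows of Dusp6 and Spred1. Over the whole windows, from 250 bases before to 50 after the start, the full element was found in 1 of the 7 members and in 1.79% of 32851 promoters, and the CArG box in 1 of 7 members and in 1.63% of promoters. The core, which the full element contains, was found in 3 members (Dusp1, Dusp5 and Spred2) and in 20.8% of promoters. The ETS core was found in 1 member (Spry2) and in 14.9% of promoters. These are matches of letters and no measurement of binding.

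In trained mice, TAU VEH was compared with WT VEH to ask which genes differed between the genotypes after learning. Dusp5, Dusp6 and Spred2 were the members that fell. So 3 of 9 members were called, all lower, where 14.4% of all genes were called and 10.8% were called lower. None of the 3 calls held in every fit.

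Dusp5 was at 45.4 and 45.6 CPM in WT VEH and at 34.6 and 33.1 CPM in TAU VEH, without overlap (log2 fold change -0.42 ± 0.09 SE, adjusted p = 0.00879). Dusp6 was at 79.9 and 72.0 CPM in WT VEH and at 61.8 and 57.3 CPM in TAU VEH, also without overlap (-0.35 ± 0.10, adjusted p = 0.0341). Spred2 was at 168.1 and 162.4 CPM in WT VEH and at 146.9 and 137.3 CPM in TAU VEH (-0.22 ± 0.07, adjusted p = 0.046). When any 1 of the 4 libraries was left out, 0 members were called. The adjusted p of Dusp5 was then 0.0592 without WT VEH replicate 1, 0.0564 without replicate 2, 0.0539 without TAU VEH replicate 1 and 0.0684 without replicate 2, while its log2 fold change lay between -0.46 and -0.40 in these 4 fits. In such a fit the lone library of a group is assumed to vary like the other groups. Under library size alone, which moved the median of all genes by 0.15, the differences of Dusp5, Dusp6 and Spred2 were -0.28, -0.20 and -0.07 and 0 members were called. Once GC content was corrected for, the Dusp5 difference was -0.20 (adjusted p = 0.295), and 1 member, Dusp6, was called.

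Dusp4 was at 38.7 and 33.9 CPM in WT VEH and at 32.2 and 26.8 CPM in TAU VEH (-0.29 ± 0.10, adjusted p = 0.0857). Spry1 was at 13.0 and 15.0 CPM and at 11.8 and 10.4 CPM (-0.32 ± 0.11, adjusted p = 0.0675). Both groups stood apart for these 2 genes although neither passed the test. Dusp1 (-0.16), Spry4 (-0.17) and Spred1 (0.08) overlapped between the groups, and Spry2 (-0.16) did not, with adjusted p-values of 0.438, 0.387, 0.574 and 0.319. The Dusp1 libraries show the overlap: 13.8 and 13.9 CPM in TAU VEH lay between the 13.6 and 17.3 CPM of WT VEH.

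All 14 choroid plexus markers were lower in TAU VEH, with a median log2 fold change of -2.29. With the choroid plexus score as a covariate 0 genes and 0 members were called, while the Dusp5 and Dusp6 differences were -0.60 and -0.45. The summed level of 4 markers of CA1 pyramidal cells was 571 and 605 CPM in TAU VEH against 974 and 1046 CPM in WT VEH, and 3 of the 4 were called lower. Summed astrocyte markers were at 1545 and 1678 CPM in TAU VEH and at 1215 and 1303 CPM in WT VEH, and 2 of the 5 were called higher. Of the neuronal, oligodendrocyte precursor and microglial markers 1 each was called lower, and the 5 endothelial markers had a median of -0.34 with 0 called. The part of these differences in the levels of the feedback genes was not tested.

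CSP-TTK21 was compared with CSP in trained THY-Tau22 mice. No member passed the test. Of the 9 members 0 were called, and 0% of the 16820 genes tested were called by edgeR, with 1064 genes at an unadjusted p under 0.05. DESeq2 called 54 genes and 0 members. The log2 fold changes of the members ranged from 0.055 for Spred2 to 0.24 for Dusp5, with a median of 0.19 against 0.01 over all genes tested, and all 9 estimates rest on the same 4 libraries. The 4 CA1 pyramidal markers also had higher estimates in TAU MOL (median 0.40, summed level 830 and 836 CPM against 571 and 605 CPM), as did the 14 choroid plexus markers (median 1.06), with 0 of either list called. The part of these markers in the estimates of the members was not tested.

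Dusp5 was at 34.6 and 33.1 CPM in TAU VEH and at 38.7 and 41.4 CPM in TAU MOL. The groups did not overlap, and the difference was 0.24 ± 0.09 (95% interval 0.04 to 0.44, adjusted p = 0.699). Dusp6 was at 61.8 and 57.3 CPM in TAU VEH and at 71.0 and 66.5 CPM in TAU MOL (0.21 ± 0.10, 95% interval -0.01 to 0.42, adjusted p = 0.805). Dusp1 was at 13.8 and 13.9 CPM and at 16.4 and 15.5 CPM (0.20 ± 0.12, adjusted p = 0.875). Each of these 3 phosphatases stood higher in both TAU MOL libraries than in both TAU VEH libraries, as did Spry2 and Spry4. How large a share of all genes stands apart in this way was not counted, here or in the other comparisons. The intervals of all 9 members exclude a rise as large as that of Dusp6 after training in WT mice (0.71), the highest upper bound being 0.47, for Spry4.

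TAU MOL and WT VEH, both trained, were compared next. Again 0 of 9 members were called by edgeR and 0 by DESeq2, where 5.63% of all genes were called (947 of 16820, with 3324 at an unadjusted p under 0.05). Dusp5 was at 38.7 and 41.4 CPM in TAU MOL and at 45.4 and 45.6 CPM in WT VEH (-0.18 ± 0.09, 95% interval -0.38 to 0.01, adjusted p = 0.284), and Dusp6 was at 71.0 and 66.5 CPM and at 79.9 and 72.0 CPM (-0.14 ± 0.10, -0.36 to 0.07, adjusted p = 0.476). Both genes stood lower in each TAU MOL library than in each WT VEH library. Of the 14 choroid plexus markers 8 were called lower in TAU MOL (median -1.37), as were 1 of the 4 CA1 and 1 of the 5 microglial markers, while 1 of the 5 astrocyte markers was called higher. Their part in the levels of the members was not tested. Spry1 (-0.23), Spred2 (-0.16) and Spred1 (0.15) also stood apart, and Dusp1, Dusp4, Spry2 and Spry4 overlapped. The share of all genes standing apart between these groups was not counted. This comparison shares the TAU MOL libraries with the previous one and the WT VEH libraries with the comparison of genotypes.

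**Figure D3:**
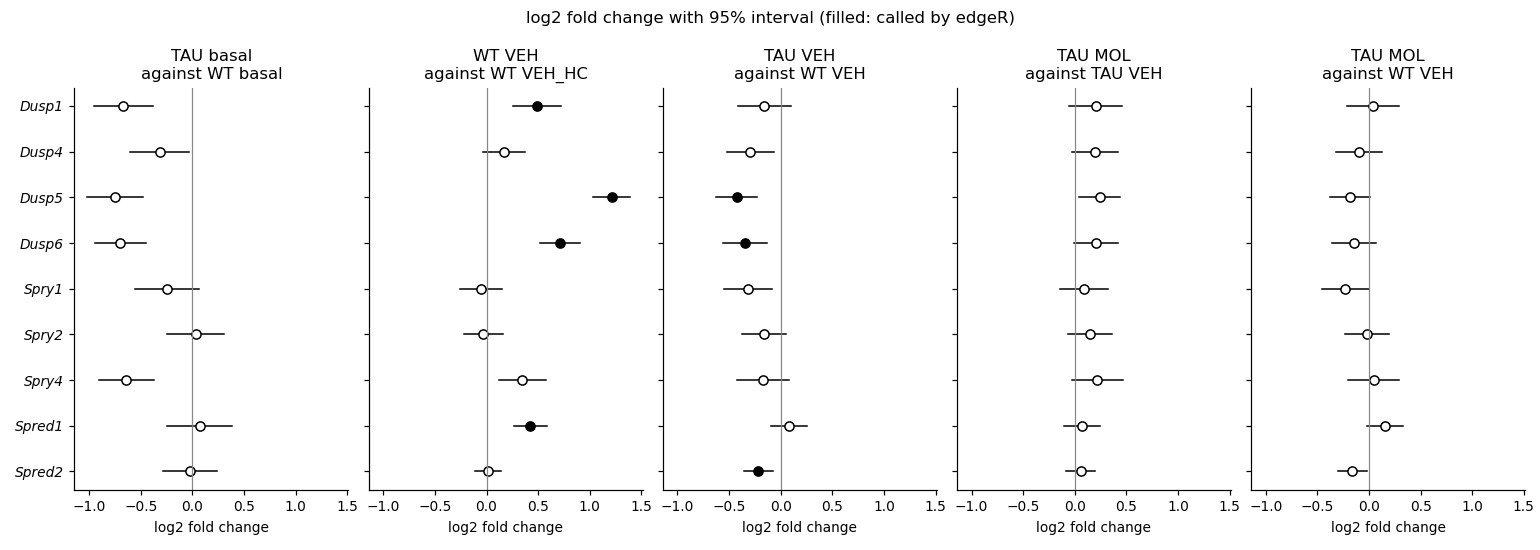
log2 fold change (x axis) with its 95% interval for each of the 9 genes in 5 comparisons; filled points were called by edgeR and open points were not. The Dusp5 estimate is -0.75 between resting genotypes, 1.21 after training in WT mice, -0.42 between trained genotypes, 0.24 with CSP-TTK21 and -0.18 between TAU MOL and WT VEH.

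Both trained THY-Tau22 groups were also set against WT VEH_HC, a comparison in which genotype, training and vehicle differ at once. TAU VEH had 4 of 9 members called higher and 2 called lower, where 34.4% of genes were called, 16.2% higher and 18.2% lower. TAU MOL had 5 called higher and 1 lower, where 28.9% of genes were called, 14% higher and 14.9% lower. Both comparisons share the WT VEH_HC libraries. Of the 14 choroid plexus markers 6 were called higher in TAU VEH (median log2 fold change 0.95) and 14 in TAU MOL (median 2.09). Of 5 astrocyte markers 4 and 3 were called higher, of 5 endothelial markers 2 and 3 were called lower (medians -0.56 and -0.61), and of 4 CA1 pyramidal markers 3 and 1 were called lower (medians -0.60 and -0.14). Of 4 oligodendrocyte precursor markers 2 and 1 were called lower (medians -0.38 and -0.26), as were 1 neuronal and 1 dentate granule marker in each comparison, and 1 microglial marker was called higher in TAU VEH. The part of these markers in the levels of the members was not tested. With the choroid plexus score as a covariate 3 members were called in TAU VEH (Dusp5, Dusp1 and Spred1, but not Dusp6) and 0 in TAU MOL. With the covariate the TAU VEH differences of Dusp5, Dusp6 and Dusp1 were 0.87, 0.41 and 0.50. Those of TAU MOL were 1.20, 0.67 and 0.87 (adjusted p = 0.0569, 0.253 and 0.161). The score and the groups cannot be told apart here, since no trained THY-Tau22 library lies within the range of the home cage libraries. Dusp5 was higher by 0.79 ± 0.08 in TAU VEH (adjusted p = 0.000218) and by 1.03 ± 0.08 in TAU MOL (adjusted p = 0.0001). Its 34.6, 33.1, 38.7 and 41.4 CPM in the 4 trained THY-Tau22 libraries all lay above the 22.0 CPM of the highest home cage library.

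Dusp6 was higher by 0.36 ± 0.09 in TAU VEH and by 0.57 ± 0.09 in TAU MOL (adjusted p = 0.0086 and 0.00125). Without TAU VEH replicate 1 the former adjusted p was 0.0976. Spred1 was higher by 0.51 ± 0.07 and 0.58 ± 0.07 (adjusted p = 0.000429 and 0.000783), at 127.3 and 112.8 CPM in TAU VEH and 129.9 and 122.5 CPM in TAU MOL against 84.4 to 84.8 CPM in WT VEH_HC. Its exons had the lowest GC content of the 9 genes, 40.6%, and after correction for GC content and length the differences were 0.21 and 0.29 (adjusted p = 0.0426 and 0.013). Dusp1 was higher by 0.33 ± 0.11 and 0.53 ± 0.10 (adjusted p = 0.032 and 0.0036). Its call in TAU VEH was lost without WT VEH_HC replicate 3 (adjusted p = 0.0726), without TAU VEH replicate 1 (0.144) or 2 (0.12), and with the replicate block (0.0784).

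Spry4 was at 24.1 and 18.5 CPM in TAU VEH and at 24.8 and 25.1 CPM in TAU MOL, against 17.6 to 20.0 CPM in WT VEH_HC. 1 TAU VEH library lay above the home cage range and the other within it. The difference of 0.18 (adjusted p = 0.217) was 0.34 without TAU VEH replicate 2 (adjusted p = 0.0333) and -0.039 without replicate 1 (0.835). In TAU MOL the difference was 0.39 ± 0.10 (adjusted p = 0.0144), and 0.0753 and 0.0827 were its adjusted p-values without TAU MOL replicate 1 and 2.

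Spry1, which restrains signalling from growth factor receptors, was the member called in the other direction in both groups. It was at 13.8, 14.9 and 14.7 CPM in WT VEH_HC, at 11.8 and 10.4 CPM in TAU VEH and at 11.8 and 12.0 CPM in TAU MOL (-0.37 ± 0.10, adjusted p = 0.0109, and -0.29 ± 0.10, adjusted p = 0.0411). Its exons had the highest GC content of the 9 genes, 57.4%, and after correction for GC content and length the differences were -0.08 and -0.06 (adjusted p = 0.619 and 0.708). The TAU VEH call held in 10 of 14 alternatives and was also lost without TAU VEH replicate 2 (0.109). The TAU MOL call held in 4 of 14, and its losses included DESeq2 (0.0725) and the fits without WT VEH_HC replicate 2 (0.0725) or 3 (0.0667), TAU MOL replicate 1 (0.181) or 2 (0.153). Spred2 was lower in TAU VEH by 0.20 on the log2 scale (-0.20 ± 0.06, adjusted p = 0.021). That call lay at the limit of 0.2 and held in 6 of 14 alternatives. Its estimate was -0.19 by DESeq2 and -0.037 under library size alone, and it was also lost without WT VEH_HC replicate 2 (adjusted p = 0.0529) or TAU VEH replicate 2 (0.185).

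Whether the genotype difference itself changed between resting and trained mice was tested in 1 joint fit of the 14 libraries, an analysis added after the data were seen. The experiment, training and the vehicle cannot be told apart in it, since trained THY-Tau22 mice received CSP and trained WT mice saline. Of the 9 members 0 were called by edgeR and 0 by DESeq2, where 0.129% of genes were called (22 of 17026, with 1325 at an unadjusted p under 0.05; DESeq2 121). The trained difference less the basal difference was 0.54 ± 0.16 for Dusp1 (adjusted p = 0.35), 0.50 ± 0.16 for Spry4 (0.405), 0.38 ± 0.14 for Dusp6 (0.513) and 0.36 ± 0.14 for Dusp5 (0.533). The other 5 members lay between -0.16 and 0.05. Dusp1, Spry4, Dusp6 and Dusp5 are the genes singled out above for their basal difference, which this contrast subtracts, so a positive value follows in part from that choice.

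The other genes of the pathway were counted by list. Of 8 immediate early genes, which are transcribed within minutes of neuronal activity, 8 rose in WT VEH over WT VEH_HC, where 5.35% of all genes were called higher, with a median log2 fold change of 1.20. Against WT VEH, 6 of the 8 were lower in TAU VEH (median -0.56), where 10.8% of all genes were called lower. In TAU basal, where 0.0245% of all genes were called, 2 were lower than in WT basal (median -1.10), namely Nr4a1 (-1.15, adjusted p = 0.016) and Arc (-1.74, adjusted p = 0.0261). In TAU MOL against TAU VEH, where 0% of all genes were called, 0 of 8 were called (median 0.44). The list was chosen with results of these samples known and is not independent evidence of a direction.

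Some genes that carry the signal to ERK were called, in both directions. Of 19 measured RAS and adaptor genes 0 were called after training (median -0.09), where 8.4% of all genes were called. Of 16 RAF, MEK, ERK and downstream kinase genes 1 was higher after training, Mknk2 (0.28, adjusted p = 0.045), which encodes a kinase of the translation factor eIF4E. The 2 that were lower encode ERK1, Mapk3 (-0.28, adjusted p = 0.0288), and MEK2, Map2k2 (-0.20, adjusted p = 0.0476). Between trained genotypes, where 14.4% of all genes were called and 10.8% were called lower, 1 of the 19 was higher and 3 lower in TAU VEH, among them the FGF receptor adaptor gene Frs3 (-0.63, adjusted p = 0.00323), and 2 of the 16 were higher and 4 lower, among them the scaffold Ksr1 (-0.48, adjusted p = 0.0021).

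After training 8.4% of all genes were called and 5.35% were called higher. Among 11 tested genes of other MAP kinase phosphatases and ERK inhibitors 1 rose after training, Errfi1 (0.54, adjusted p = 0.00345), which encodes a feedback inhibitor of the EGF receptor. In TAU VEH against WT VEH, where 14.4% of all genes were called and 10.8% were called lower, 3 of the 11 were lower, Dusp8 (-0.50, adjusted p = 0.00341), Spred3 (-0.32, adjusted p = 0.0099) and Dusp7 (-0.30, adjusted p = 0.0183). None of these 3 was called after training. Of 8 other ERK target genes 0 were called after training, and in TAU VEH against WT VEH 1 was higher, Epha4 (0.31, adjusted p = 0.0214), and 2 lower, the ETS factor gene Etv5 (-0.45, adjusted p = 0.00169) and Phlda1 (-0.30, adjusted p = 0.0308). Of 4 genes of serum response factor and its partners, Elk1 was lower after training (-0.34, adjusted p = 0.0422), and Srf was lower in TAU VEH against WT VEH (-0.54, adjusted p = 0.00148). In resting mice and in TAU MOL against TAU VEH, where 0.0245% and 0% of all genes were called, 0 genes of these 5 lists were called.

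**Figure D4:**
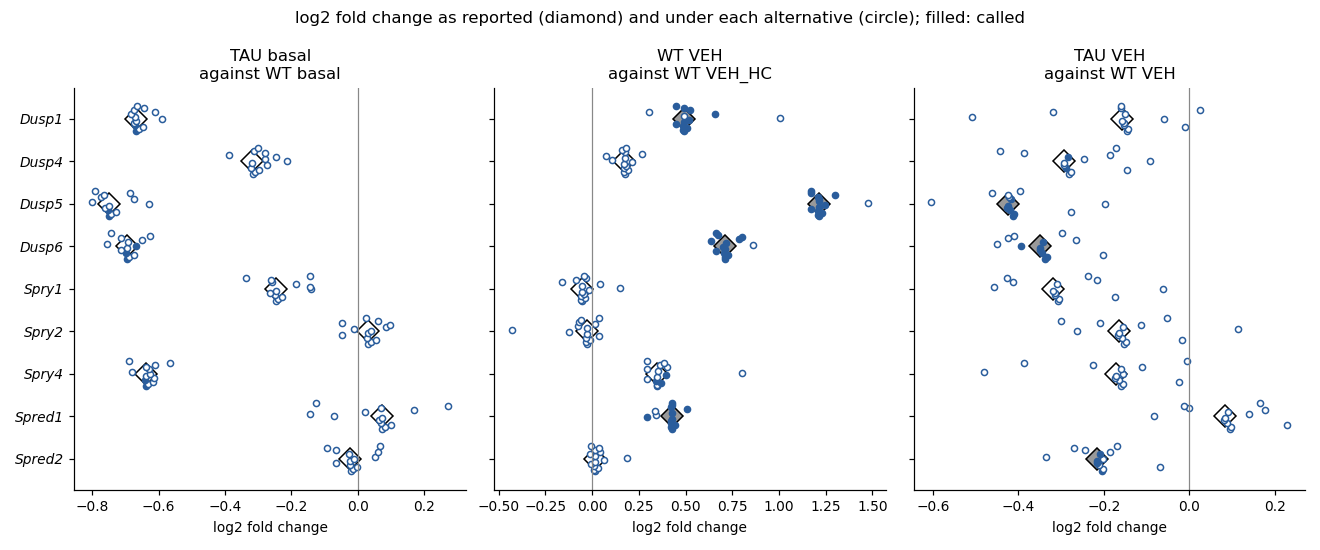
log2 fold change (x axis) of each gene as reported (diamond) and under each processing alternative (circle) in 3 comparisons; filled symbols were called. In TAU basal against WT basal the Dusp5 estimates run from -0.80 to -0.63, in WT VEH against WT VEH_HC from 1.17 to 1.47, and in TAU VEH against WT VEH from -0.60 to -0.20.

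The members were not alike in their pattern over the 9 learning libraries. For each, the 2 genes with the highest Pearson correlation of log2 CPM were looked up among the 12422 genes that averaged 100 counts or more, as a description only, since libraries of 1 group lie together. The 2 genes most like Dusp5 were Egr2 (r = 0.97), an immediate early transcription factor gene, and Jmjd6 (r = 0.97). Those most like Dusp6 were the clock gene Per2 (r = 0.98) and Dusp5 itself (r = 0.97). For Dusp1 they were Nadk and Slc30a5, for Dusp4 Irf2 and Ep300, for Spry4 1110018J18Rik and Slc22a5, and for Spred1 Fam46a and Spopl. For Spry1 they were Actn1 and Dennd2a, for Spry2 Gfra2 and Gtf3a, and for Spred2 Snx11 and Trpm4, with r from 0.90 to 0.99 over all members. Over the 5 basal libraries the same pairs had r from -0.53 (Spred2 with Trpm4) to 0.97 (Dusp6 with Dusp5).

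The genes lie on 9 different chromosomes in mm9, and no exon of another gene overlaps theirs in the annotation. Dusp1 spans chr17:26642535-26645464, Dusp4 chr8:35870351-35882948, Dusp5 chr19:53603599-53616921 and Dusp6 chr10:98725865-98730122. Spry1 spans chr3:37538869-37543520, Spry2 chr14:106291166-106296036, Spred1 chr2:116947110-117008015, Spred2 chr11:19824378-19924029 and Spry4 chr18:38745922-38760922. All 9 are protein coding, with 2085 (Spry2) to 6784 (Spred1) bases of exon.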

How the data were processed

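RNA-seq libraries of the dorsal hippocampus were made by the authors with a poly-A kit that does not mark strand, sequenced as single-end reads, aligned to mm9 with TopHat2 2.0.10 and Bowtie2 2.1.0, and counted on Ensembl genes with HTSeq, per the study's methods and the submitters' processing notes. The authors deposited raw counts, whole numbers without normalization, and every test here was run on them. The deposited tables also hold a normalized signal, each count over a factor of its library, which was not tested. The authors left out 3 libraries of the learning experiment, which were not analysed here. The learning table held 138 empty lines, which were skipped, and 0 columns were left without a sample.

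Separate fits were made for the 5 basal and the 9 learning libraries, each library being 1 mouse, with edgeR 4.0.16 in R 4.3.3: TMM factors, filterByExpr by group, quasi-likelihood F test, and Benjamini-Hochberg adjustment over all genes tested. Calls required an adjusted p under 0.05 and a log2 fold change over 0.2 in size. The SE is the fold change over the root of F, and the 95% interval uses the t quantile of the fit. Levels per length use the exons of the GENCODE annotation of mm9. Promoter windows came from RefSeq on GRCm38.p6 (7 of 9 members). The script was tested on simulated counts first. Alternatives were DESeq2 1.42.0, its size factors in edgeR, library size alone, every gene with at least 1 count, the replicate block, no limit on the fold change, a loess correction for GC content and gene length (limma 3.58.1, span 0.3), the choroid plexus score as a covariate, only the groups compared, and leaving out each library. The joint fit was added after the data were seen. Figures used Python 3.11.15 and matplotlib 3.10.9.

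All 9 members are named. From each pathway list at most the 3 genes with the smallest adjusted p in a comparison are named, and for each member the 2 genes most like it. The members and the lists were chosen with earlier results of these data known.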

Additional observations from a re-analysis of the deposited data

How the results depend on the processing

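Of the 72 log2 fold changes of a member in a comparison, 27 were called in at least 1 fit, and of their 370 alternative values 287 kept the direction and the side of the threshold, 64 lost a call, 18 gained one and 1 changed sign. The latter was Spry4 in TAU VEH against WT VEH_HC, at -0.039 without TAU VEH replicate 1; its values without 1 library reached 0.34. The other 45 were called nowhere, and 52 of their 575 alternative values had the other sign, none larger than 0.15. The causes were not tested.

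Of the members, DESeq2 and the fit of every gene with at least 1 count each called 4 in TAU basal against WT basal, and the GC correction called 1. With the choroid plexus score the members called were 0 in WT VEH against WT VEH_HC, 0 in TAU VEH against WT VEH, 3 in TAU VEH against WT VEH_HC and 0 in TAU MOL against WT VEH_HC. Over all alternatives of the latter, Dusp5 stayed at 0.98 or more and Dusp6 at 0.52 or more. In TAU VEH against WT VEH, library size alone called 0 members, the GC correction 1, and the fits without 1 library 0 each. Library size alone moved the median of all genes by 0.12 in TAU MOL against WT VEH, and by 0.17 and 0.14 in TAU VEH and TAU MOL against WT VEH_HC.

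Same-numbered libraries deviated from their group means with correlations of -0.16 to -0.06 in the basal and -0.04 to 0.27 in the learning experiment, so the numbers were not taken to pair the mice. With the replicate block 0 members were called in TAU basal against WT basal, 4 in WT VEH against WT VEH_HC, 3 in TAU VEH against WT VEH, 0 in TAU MOL against TAU VEH and against WT VEH, and 5 in each of TAU VEH and TAU MOL against WT VEH_HC.

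Over all genes, TAU basal against WT basal gave 125 calls without the filter, 37 with the block and 12 with the GC correction. WT VEH against WT VEH_HC gave 2686 without the filter, 3000 with the block, 744 with the GC correction and 310 with only its groups, and 73 without WT VEH replicate 1. The GC correction left 506 calls in TAU VEH against WT VEH, 21 in TAU MOL against WT VEH, and 1768 and 1599 in TAU VEH and TAU MOL against WT VEH_HC. Of the calls in TAU VEH against WT VEH 1815 of 2423 were lower, but 1020 of 3598 under library size alone. The depth, 276 to 8364 counts of a member in a library, and the 2 or 3 mice a group limit these tests.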
